A study of Mus musculus with 4 samples.

Results

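The 7 Sox genes described here, Sox2, Sox4, Sox5, Sox6, Sox8, Sox9 and Sox11, were taken as a named list from the 21883 protein-coding genes of a RefSeq table. The rule for choosing them was their names and used no peak value, although the list was drawn up with earlier results of these data known. Each gene was examined for sites of Isl1, a LIM-homeodomain transcription factor, in chromatin of the genital tubercle, the bud of the embryo from which the external genitalia grow. The tissue came from wildtype CD1 mouse embryos at E14.5. ISL1-bound DNA was enriched with a rabbit monoclonal antibody (Isl1_ChIP, 2 replicates), and the 2 Input_DNA samples, chromatin without antibody, were not analysed here. A peak belonged to a gene when its midpoint lay inside the gene or within 500 kb of it (1 Mb for Sox9). Peaks of the replicates that overlapped by at least 1 bp formed a shared region. The windows held 45 of the 8860 peaks of replicate 1, 46 of the 10162 peaks of replicate 2 and 32 of the 6834 shared regions. The files give a position and a score per peak and no RNA level, so whether the Sox genes were transcribed in these cells was not measured, and the read depth of the libraries is unknown.

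Sox proteins bind DNA through an HMG box, a domain that bends the double helix, and are sorted into groups by their sequence. SOX2 belongs to the SoxB1 group and maintains progenitor cells, SOX4 and SOX11 form most of the SoxC group and act in progenitors of mesenchyme and nerve, SOX5 and SOX6 are SoxD proteins that work beside SOX9 in cartilage, and SOX8 and SOX9 are SoxE proteins. SOX9 directs testis and cartilage formation, and several of its known enhancers lie far from the gene in a long stretch without other protein-coding genes.

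No shared region lay at a listed start site of a Sox gene. The listed starts lacked Sox9, and the only one of Sox5 was at 143947106, within the gene. Other starts of these genes were not examined. Of 32 regions, 4 touched an annotated promoter (250 bases before to 50 after a start), and none of these promoters belonged to a Sox gene. Over all 6834 regions 734 did (12.5% of the regions in the Sox windows and 10.7% of all). Described here are those of Pik3c2a in the Sox6 window, which encodes a lipid kinase, and Slc39a11 in the Sox9 window, which encodes a zinc transporter. These promoters, printed 5′ to 3′ on the strand of the gene from RefSeq (GRCm38.p6), show the bases under the shared region in capitals. The Pik3c2a promoter lies on the minus strand at chr7:116443409-116443708 and holds a region of 151 bp, and the Slc39a11 promoter on the minus strand at chr11:113565766-113566065 with 131 bases covered.
Pik3c2a: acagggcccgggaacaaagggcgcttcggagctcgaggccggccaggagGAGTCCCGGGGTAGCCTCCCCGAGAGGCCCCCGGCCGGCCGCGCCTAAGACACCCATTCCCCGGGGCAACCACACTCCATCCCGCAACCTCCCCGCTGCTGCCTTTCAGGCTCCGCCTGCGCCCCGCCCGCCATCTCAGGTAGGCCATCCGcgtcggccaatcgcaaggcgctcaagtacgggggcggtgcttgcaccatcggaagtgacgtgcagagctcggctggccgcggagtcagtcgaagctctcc
Slc39a11: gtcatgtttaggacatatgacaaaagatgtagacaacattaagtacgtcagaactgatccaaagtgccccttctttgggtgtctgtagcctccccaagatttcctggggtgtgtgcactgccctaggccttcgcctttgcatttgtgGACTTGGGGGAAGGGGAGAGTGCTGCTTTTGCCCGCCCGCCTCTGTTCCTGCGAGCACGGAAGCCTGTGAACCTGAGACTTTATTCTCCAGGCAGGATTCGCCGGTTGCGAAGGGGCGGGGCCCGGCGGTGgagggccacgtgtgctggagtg

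A second region of 121 bp reached the Pik3c2a promoter by 1 base from the other side. The letters TAAT, the core that many homeodomain proteins bind, were searched on both strands, and they were absent from the Pik3c2a promoter and present once in the Slc39a11 promoter. That match lies in the small letters, outside the bases under the shared region. Of all 32851 promoters in the table, 58.0% hold TAAT on either strand. For the Sox genes themselves the table held 11 promoters of 6 members, of which 8 promoters of 4 genes hold TAAT. Besides 1 promoter each of Sox2, Sox4 and Sox11, these 8 are all promoters of the single gene Sox6. None of the 11 holds the longer forms CTAATG or TAATTG, which 7.36% and 8.0% of all promoters hold. For the SOX core, AACAAT was in 1 and ACAAAG in 6 of the 11, against 10.7% and 18.7% of all promoters, and 5 of these 6 are promoters of the single gene Sox6 and the other is that of Sox2. The stretches of 30 bases at the TAAT of Sox2, Sox4 and Sox11, which have 1 promoter each, show how near to the start it lies, in capitals on either strand: 13 bases into the transcript of Sox2, and 128 and 94 bases before the starts of Sox4 and Sox11. In Sox4, matches to TAAT on the other strand overlap.
Sox2: tggatggttgtctATTAacttgttcaaaaa
Sox4: attgcacgcggagATTATTAttgcatcggg
Sox11: tggggcccgtggtTAATaacgggagatagg

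The Sox2 stretch is chr3:34649994-34650023 on the plus strand, and those of Sox4 (chr13:28953811-28953840) and Sox11 (chr12:27342796-27342825) are on the minus strand. The Isl1 peaks nearest to these starts were far from them. In replicates 1 and 2 they lay 39.5 and 39.5 kb from the start of Sox2, 53.1 and 166 kb from that of Sox4, and 8.0 and 46.1 kb from that of Sox11. A match is a description of the letters and does not show a site.

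Every member had at least 1 shared region in its window, from 1 at Sox2 to 8 at Sox9. The 8 came from the wider window of Sox9, and 23.6% of all genes have as many within 1 Mb. Within 500 kb Sox9 had 4. Within 1 Mb Sox4 had 13, Sox11 had 10, Sox5 and Sox6 had 8 each, and Sox2 and Sox8 had 5 each. That every member had a region has little weight alone, since 78.0% of all protein-coding genes had a shared region within 500 kb. Within 100 kb, 5 of 7 members had one, against 38.1% of all genes, and 2 of 7, Sox5 and Sox6, had one inside the gene, against 8.32%. Sox5 and Sox6 are also the long members, at 954 and 570 kb, while the other members are between 2.47 and 8.45 kb long. The median number within 500 kb was 4 for the members and 2 over all genes, and the median per Mb of window was 3.98 for the members and 1.97 over all genes. These are descriptions without a test, because the members are few and the list was not made blind to these data.

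**Figure D1:**
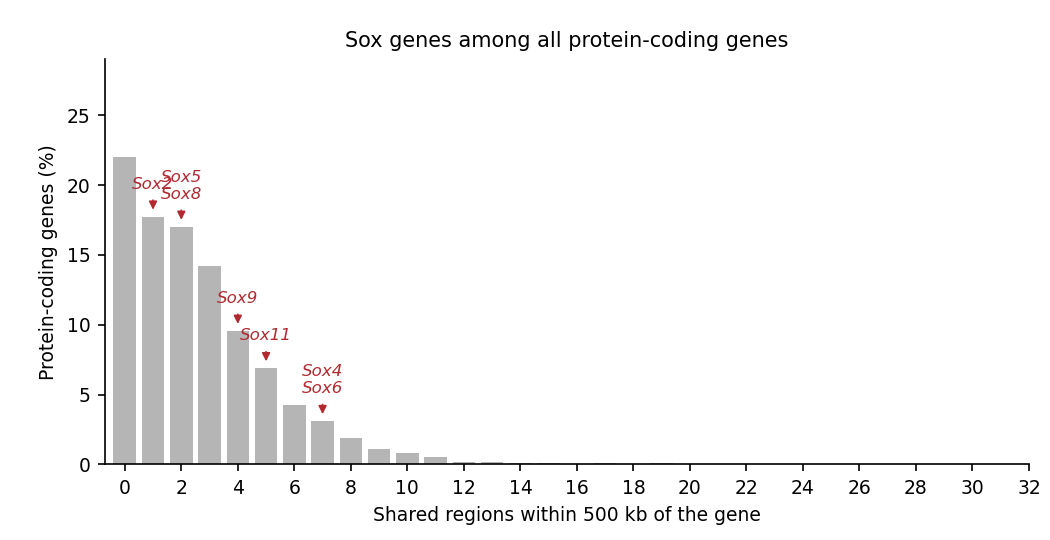
Share of all protein-coding genes (y axis, percent) by the number of shared Isl1 regions within 500 kb (x axis), with the Sox genes marked at their own number. Sox4 and Sox6 stand at 7 regions, Sox11 at 5, Sox9 at 4, Sox5 and Sox8 at 2 and Sox2 at 1, so the members spread from the common counts to the thinner upper part of the distribution.

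The next question was how far the replicates placed the same peaks in these windows. In replicate 1, 32 of 45 peaks were shared (71.1%, Wilson 95% interval 56.6 to 82.3%), against 78.5% of that whole list. In replicate 2, 32 of 46 were shared (69.6%, 55.2 to 80.9%), against 68.3%. Both intervals, which cover counting error only, contain the share of the whole list. The scores are the authors' own values. The lower of the 2 scores had a median of 76.5 over the 32 regions and of 91 over all 6834. A single region, in the Sox8 window and not described one by one here, had a lower score above the 90th percentile of all regions (316), and the highest lower score of the others was 178. The median width of a region was 212 bp in the Sox windows and 251 bp over all. Peaks of replicate 1 alone had a median score of 56, against 89 for its shared peaks in the windows, and for replicate 2 these medians were 78 and 94.5.

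**Figure D2:**
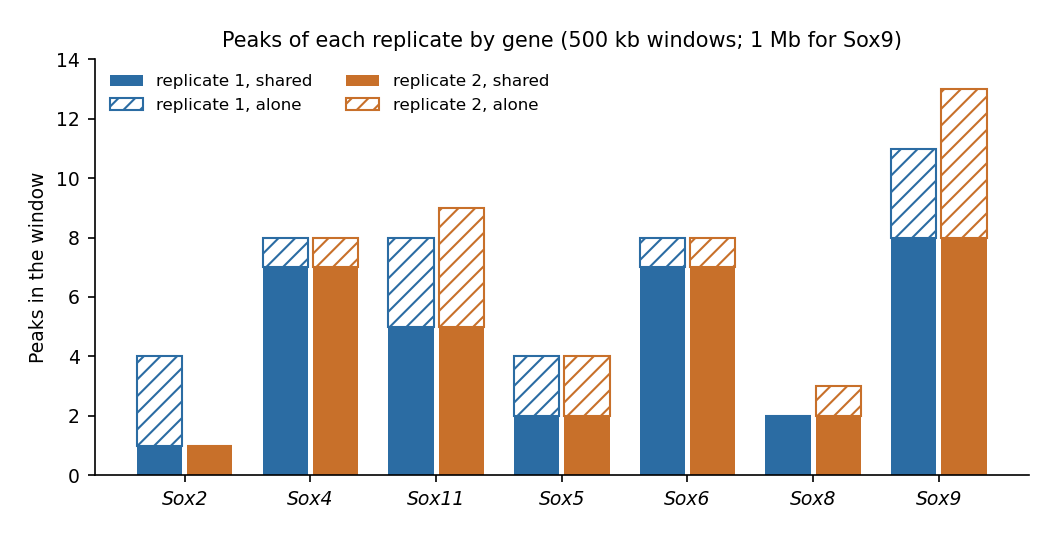
Number of peaks (y axis) in the window of each Sox gene (x axis), with replicate 1 in blue and replicate 2 in orange. Filled bars are peaks shared between the replicates and hatched bars are peaks of that replicate alone. Sox9 has 8 shared peaks in each replicate and 3 and 5 alone, while Sox2 has 1 shared peak and 3 alone in replicate 1.

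**Figure D3:**
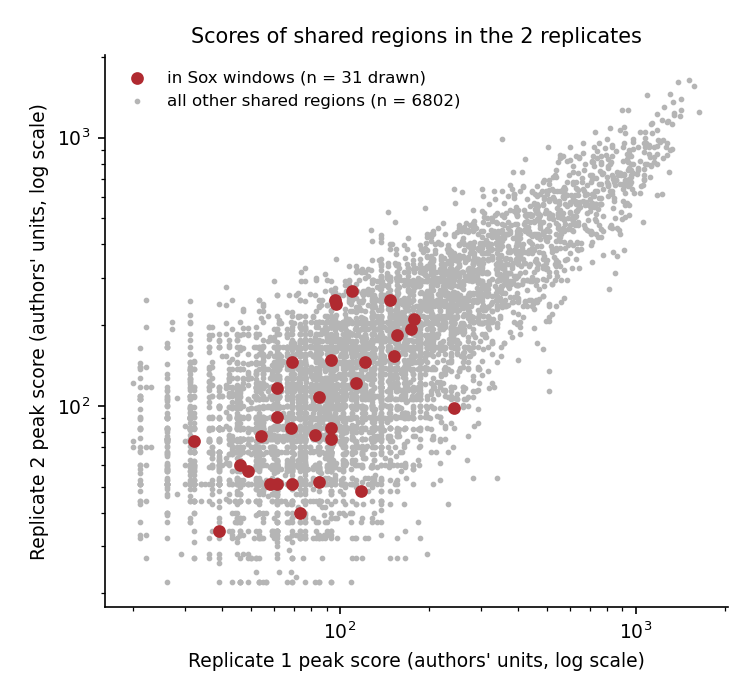
Authors' peak score in replicate 1 (x axis) and replicate 2 (y axis), both on log scales, for the shared regions in the Sox windows (red, 1 region not drawn) and all other shared regions (grey). The red points drawn lie within the grey cloud, and the region not drawn has the highest lower score of the Sox windows, above the 90th percentile of all regions (316).

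Spearman's rho between the replicate 1 and replicate 2 scores was 0.678 over the 32 regions and 0.717 over all 6834. These are correlations across regions that share the same pair of libraries, given without a p-value. Without the 4 regions that touched a promoter the correlation was 0.656. Over the 13 regions left when only peaks at or above the median score of their list were used, it was -0.0138. That cut narrows the range of scores, and no value over all regions under the same cut stands beside it.

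Most of the regions were remote from any protein-coding gene. By location, 19 of 32 regions (59.4%) lay over 100 kb from any such gene, against 25.9% of all regions. A further 7 (21.9%) lay inside a gene, against 36.9%, 4 (12.5%) lay outside within 100 kb, against 23.7%, and 2 (6.25%) lay within 1 kb of a gene end, against 13.6%. The regions over 100 kb from a gene lay mostly in the windows of Sox4, Sox9 and Sox11, and those of Sox2 and Sox8 were not among them. The Sox9 window was also the wider one, of 1 Mb either side. The windows differ in how many other protein-coding genes they hold, from 0 at Sox2 and Sox11 to 48 at Sox8, and the part of this in the location of the regions was not tested. Of the 32 regions, 12 (37.5%) lay inside an annotated lncRNA, a long RNA that codes for no protein, against 11.6% of all regions. These were unevenly spread: 5 lay in the single lncRNA 2610307P16Rik at Sox4 and 3 at Sox11, with 0 at Sox5 and Sox8. The Sox gene was the nearest protein-coding gene for 21 of the 32, and the median distance to it was 261 kb. That distance moved with the window, from 37.7 kb with 100 kb for every gene to 504 kb with 1000 kb. It has no value over all genes beside it.

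**Figure D4:**
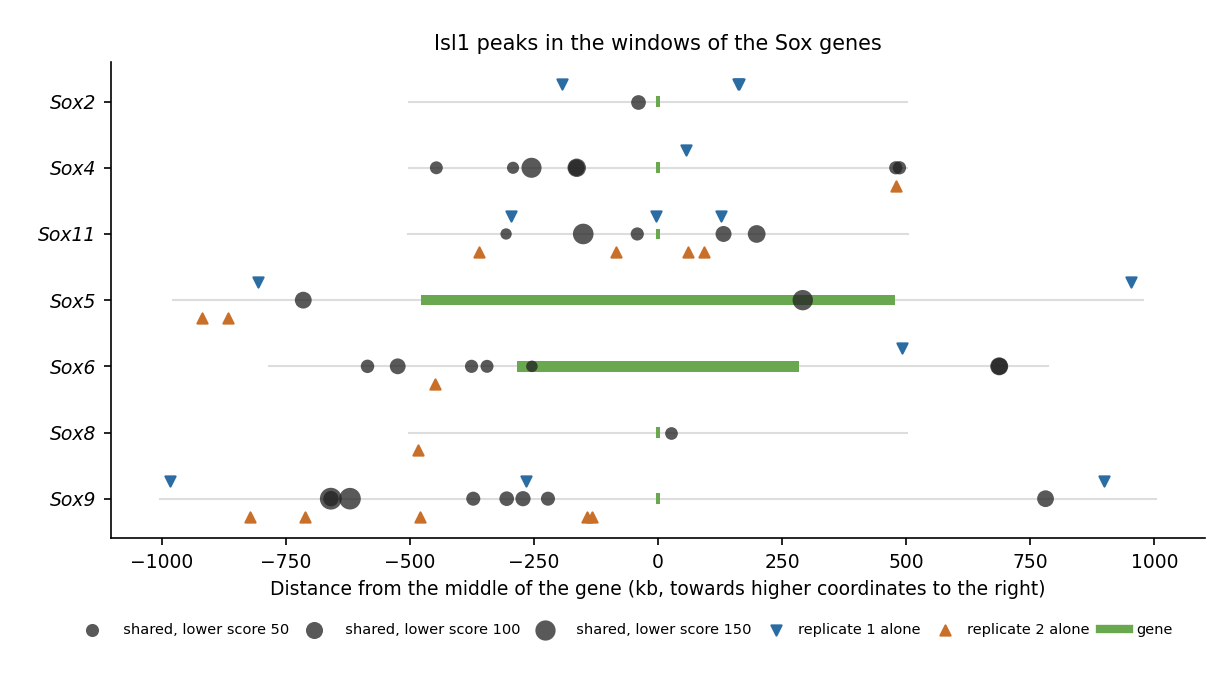
Positions of Isl1 peaks around each Sox gene, as distance in kb from the middle of the gene (x axis), with 1 row per gene (y axis). Circles are shared regions with an area that grows with the lower score, triangles are peaks of replicate 1 alone (blue, above the line) and replicate 2 alone (orange, below), green bars are the genes (drawn at least 8 kb wide), and grey lines are the windows; 1 region of Sox8, with the highest lower score of the windows, is not drawn. Regions of Sox4 and Sox9 lie mostly on the side of lower coordinates.

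Sox2, a SoxB1 gene on chromosome 3 (34649995 to 34652461), had the fewest regions. Its single shared region (34610325 to 34610568) lay 39.5 kb upstream, inside Sox2ot, the lncRNA that surrounds Sox2. Its score was 69 in replicate 1 and 146 in replicate 2. The replicates differed here in what else they placed around the gene. Replicate 1 alone had 3 more peaks, with scores of 53, 46 and 76, of which the closest was 161 kb away, and replicate 2 had none. Hence Sox2 had 4 peaks by replicate 1 and 1 by replicate 2. With only peaks at or above the median score of their list, Sox2 had no shared region. No other protein-coding gene lay in the window.

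Both SoxC genes had more regions, and neither had one inside the gene. Sox4 (chromosome 13, 28948919 to 28953699) had 7, a number that 8.34% of all genes reach within 500 kb, or 6.97 per Mb of window. Of the 7, 5 lay on the downstream side inside the lncRNA 2610307P16Rik. The nearest were a pair whose midpoints were 576 bp apart, 162 kb from the gene. The peak pair at 28786704 to 28786994 scored 93 in replicate 1 and 148 in replicate 2, and that at 28787297 to 28787534 scored 121 and 146. The region with the highest lower score of the window (28696162 to 28696442, 253 kb away) scored 147 and 249. The remaining regions of that side, at 290 and 444 kb, scored 73 and 118 in replicate 1 and 40 and 48 in replicate 2. On the upstream side 2 regions at 477 and 484 kb lay inside Cdkal1, a tRNA-modifying enzyme gene, with scores of 58 and 51 and of 85 and 52 in replicates 1 and 2. No shared region was within 100 kb of Sox4, and the nearest single peak, of replicate 1 alone (29006701 to 29006875, score 56), lay 53.1 kb upstream.

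Sox11 (chromosome 12, 27334268 to 27342718) had 5 regions, which 19.4% of all genes reach, on both sides of the gene. Sox11 was the only protein-coding gene of its window, and it was the nearest such gene to all 5. On the downstream side, regions lay at 37.7 kb (27296527 to 27296708, scores 61 and 51), at 147 kb (27187491 to 27187924, scores 156 and 184) and at 302 kb (27032051 to 27032323, scores 32 and 74), each inside a different lncRNA, namely Gm52005, Gm40872 and Gm30515. On the upstream side, regions lay at 128 kb (27470321 to 27470531, scores 85 and 108) and at 195 kb (27537135 to 27537346, scores 110 and 269). Of the 5, the region at 147 kb had the highest lower score and the highest score in replicate 1. At 434 bp it was also the widest. In replicate 2 the region at 195 kb scored highest. Replicate 1 alone placed a peak inside Sox11 (27334621 to 27334811, score 93), 0.448 kb from the end of the gene that is away from its start, and replicate 2 had no peak in the gene. With single peaks counted, Sox11 had 8 in replicate 1 and 9 in replicate 2.

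The SoxD genes, long genes whose products carry an HMG box and no known activation domain, each had 1 region inside. In Sox5 (chromosome 6, 143828425 to 144782287) it lay at 144596910 to 144597063, 185 kb from the upstream end of the gene, and scored 152 in replicate 1 and 154 in replicate 2. The other shared region of Sox5, 238 kb downstream (143590221 to 143590491), scored 97 and 239. With 2 regions in a window of 1.95 Mb, Sox5 had 1.02 per Mb, a density that 60.2% of all genes reach. Each replicate had 4 peaks in the Sox5 window, of which 2 were shared.

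Sox6 (chromosome 7, 115470872 to 116040776) had 7 regions, or 4.46 per Mb, a density that 18.5% of all genes reach. The region inside it (115501544 to 115501795) had the second lowest lower score of the 32, with scores of 39 and 34, and lay 30.7 kb from the downstream end by the replicate 1 peak. Beyond that end came regions at 59.7 kb (115411079 to 115411233, scores 49 and 57), at 90.9 kb (115379863 to 115380018, scores 69 and 51), at 240 kb (115231126 to 115231280, scores 93 and 83) and at 301 kb (115170138 to 115170467, scores 54 and 77). These 4 regions and the one inside formed the run of 5 that had Sox6 as its nearest protein-coding gene. The regions of the window with the highest lower scores lay at the Pik3c2a promoter, 403 kb upstream (116443289 to 116443409 and 116443509 to 116443659). They scored 113 and 242 in replicate 1 and 122 and 98 in replicate 2. The exons of Sox5 and Sox6 were not used here, so whether the inner regions lie in an intron is not given.

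The SoxE genes differed in their surroundings. Sox8 (chromosome 17, 25565893 to 25570686), which overlaps with Sox9 in its roles in the gonad, sat among 48 other protein-coding genes, and neither of its 2 regions had Sox8 as the nearest gene. One, 23.3 kb upstream (25593949 to 25594089), lay inside Lmf1, a lipase maturation gene, with scores of 46 and 60. The other is not described here.

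Sox9 (chromosome 11, 112782210 to 112787757) had 8 regions in its window of 1 Mb either side, and 4 within 500 kb, which 29.01% of all genes reach. Of the 8, 7 lay on the side of lower coordinates. A run of 4 lay at 219, 269, 302 and 370 kb (112562968 to 112563231, 112512720 to 112512900, 112479924 to 112480071 and 112412516 to 112412762). Their scores in replicate 1 were 61, 93, 68 and 61, and in replicate 2 they were 117, 75, 83 and 91. Farther out were 3 regions, of which 2 had the highest lower scores of the window. That at 112125370 to 112125647 (657 kb) scored 178 and 210, and that at 112164026 to 112164285 (618 kb) scored 174 and 194. The third, 282 bp from the first by midpoint (112125724 to 112125850), scored 82 and 78. For these 3 the nearest protein-coding gene was Gm11677, at 399 to 438 kb. The region on the other side (113565788 to 113565918) lay 778 kb away at the Slc39a11 promoter and scored 96 and 249. No shared region was within 100 kb of Sox9, and the nearest single peak, of replicate 2 alone (112652417 to 112652581, score 100), lay 130 kb away. Counted in single lists, Sox9 had 11 peaks in replicate 1 and 13 in replicate 2.

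Close pairs occurred at Sox4, Sox6 and Sox9. In total 6 of 32 regions (18.8%) had another shared region within 1 kb, against 6.98% of all regions. Peaks within a pair are neighbours in the same library and are not separate evidence. At the edges of the windows, the last regions inside and the first outside were close together at Sox4 alone, at 484 and 504 kb, where the outer one was nearest to Cdkal1 and scored 166 and 184. For the other genes the first region outside lay at 518 kb (Sox11), 536 kb (Sox2), 550 kb (Sox8), 576 kb (Sox5), 770 kb (Sox6) and 1035 kb (Sox9).

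By group, the windows held 12 regions in SoxC (7 at Sox4 and 5 at Sox11). In SoxD there were 9 (2 at Sox5 and 7 at Sox6), in SoxE 10 (2 at Sox8 and 8 at Sox9) and 1 in SoxB1. The SoxE total includes the 1 Mb window of Sox9, which had 4 regions within 500 kb. The groups also differ in number of genes and in span of window, so these totals do not rank them. Of the 13 other mouse Sox genes, 9 had a shared region within 500 kb (69.2%, against 78.0% of all genes), 2 had one within 100 kb (15.4%, against 38.1%) and none had one inside (against 8.32%), with a median of 1 region, against 2 over all genes. Sox15 had 9, and 3.34% of all genes have as many. Sox10 and Sox30 had 4 each and Sox13 had 2. Sox1, Sox7, Sox12 and the testis-determining gene Sry had none. The nearest region was 73.6 kb from Sox15, 315 kb from Sox10, 300.3 kb from Sox30 and 377 kb from Sox13. Of the 7 members, 7 had a region within 500 kb, 5 within 100 kb and 2 inside. No test was made of the difference between the 7 members and these 13 genes. The members were chosen with earlier results of these data known, and the 13 are the genes that this choice left. The difference therefore cannot be read as a trait of either list or of the family.

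Of 16 genes that SOX9 activates in cartilage, 13 had a region within 500 kb (81.2%, against 78.0% of all genes), with a median of 2 regions, the same as over all genes. Epyc, a small proteoglycan gene, had 19, Matn3 and Wwp2 had 8 each, and Chad had 5. Col2a1, which encodes the main cartilage collagen, Col9a2 and Comp had none. Wwp2, the host gene of a cartilage microRNA, and Col11a1 were the genes of this list with a region inside. Of 18 genes of the tubercle, the urethra and sex differentiation, 17 had a region within 500 kb (94.4%, against 78.0% of all genes). Their median was 5 regions, against 2 over all genes, and Shh was the gene with none. This list too was drawn up with earlier results known, and no test was made. Ptch1, the hedgehog receptor gene, had 18, Wnt5a and Bmp4 had 12 each, and Esr1, Amh, Trp63 and Bmp7 had 7 each. The counts at Sox4 and Sox6, also 7, equal those of Bmp7 and Esr1 and are below those of Ptch1, Wnt5a and Bmp4.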

How the data were processed

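Isl1 ChIP-seq libraries of E14.5 genital tubercles gave 75 bp single-end reads, according to the labels' protocols. Nothing there says whether the 2 replicates came from separate pools of embryos. Trimmomatic 0.35, Bowtie2 2.2.6, MACS2 2.1.0.20150731, bedtools and build mm10 are named in the submitters' processing notes, without order, settings or use of the input. The authors deposited 1 peak list per ChIP sample, in which each peak has a whole-number score (20 or more in both lists) of unstated formula. It ranks peaks within a list and is not known to compare between lists.

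Positions were made 1-based. The midpoint of a shared region was set from the longest overlap of its peaks, and distances run to the nearest end of a gene in the RefSeq table of GRCm38.p6, the assembly of mm10. Strands and start sites came from the RefSeq promoter table, which held 6 of the 7 members. Sites under the authors' threshold are not listed, so absence of a peak does not show absence of binding. No test was run: most values stand beside the same over all genes or regions. Only the share of peaks found in both replicates carries Wilson intervals. The rule for naming took every region where a gene had 5 or fewer, and otherwise the 3 nearest, the 3 with the highest lower score and those inside; in other lists it took the 4 genes with most regions and ties. One region of the Sox8 window is counted in every total but not reported singly. Further regions and genes were named after their values were seen. The members and lists were chosen with earlier results of these data known. The overlap code was tested on simulated data (Python 3.11.15, pandas 2.3.3, scipy 1.17.1).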

Additional observations from a re-analysis of the deposited data

How the results depend on the processing

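Of 161 values under alternatives, 115 stayed within 1.5 times the count, the interval of the share or the spread of the value, 45 moved and 1 changed sign. All 7 Sox genes kept at least 1 region with 50% reciprocal overlap and with a score of at least 50. They also did with any base in the window and in the full list of each replicate. Those 2 settings could hardly give fewer, since a region centred in the window has a base there and is a peak in both lists. With windows of 100, 250 and 1000 kb for every gene, the regions numbered 7, 15 and 57 in place of 32, and their median distance was 37.7, 128 and 504 kb in place of 261 kb. It was 239 kb with 500 kb for Sox9 too. The Sox gene was nearest for 6 regions within 100 kb. The rank correlation was 0.812 at 250 kb and 0.451 at 1000 kb. With only peaks at or above the median score of their list, the windows held 13 regions, 7 of them nearest to the Sox gene, Sox2 had none, and the correlation of 0.678 became -0.0138. The other Sox genes with a region numbered 2 and 3 at 100 and 250 kb and 5 with the peaks at or above the median, in place of 9, and the cartilage genes 5 at 100 kb, in place of 13. In a single list the windows held 45 and 46 peaks, Sox2 had 4 in replicate 1, Sox5 had 4 in each, Sox9 had 13 in replicate 2, and Sox11 had 8 in replicate 1 and 9 in replicate 2. The causes were not tested. No paired analysis was possible because the samples with the same numbers are inputs, whose values were not analysed here. No sequence of the regions away from promoters was analysed, and depth limits which weak sites are listed.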
